A study of Rattus norvegicus with 8 samples.

Results

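The genes described are 9 regulators of epithelial identity and keratinocyte fate, *Esrp1*, *Esrp2*, *Grhl2*, *Grhl3*, *Ovol1*, *Elf3*, *Tp63*, *Klf4* and *Klf5*, chosen by gene symbol out of the 30240 gene rows of the deposited table. All 9 had a row. They were read in SF2 cells, a dental epithelial line from the cervical loop of the rat lower incisor, the stem cell region at the base of the continuously growing tooth. The AmeloD cells carry the label of AmeloD overexpression and the others the label Control. AmeloD is the product of *Ascl5*, a transcription factor of the basic helix-loop-helix class in dental epithelium. Each genotype was given with the plasmid label pCMV6.ODAM or pCMV6 and with the label TGF or N, neither of which is spelled out. *Odam* encodes the odontogenic ameloblast-associated protein. The 8 combinations had 1 library each, so a genotype, plasmid or TGF label is carried by 4 libraries and no combination is replicated. The labels do not say how AmeloD was overexpressed, whether either genotype is a single clone, or what dose or time stands behind TGF.

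ESRP1 and ESRP2 are RNA-binding proteins that set the epithelial pattern of exon use in transcripts of adhesion and growth factor receptor genes. The Grainyhead-like factors GRHL2 and GRHL3, the zinc finger repressor OVOL1 and the ETS factor ELF3 maintain epithelial junctions and barrier genes, and p63, KLF4 and KLF5 govern the basal and differentiating layers of stratified epithelia. In the tooth, p63 marks dental epithelium and *Klf4* and *Klf5* are known from differentiating ameloblasts and odontoblasts of the mouse. AmeloD and its relatives bind E-boxes, short DNA words of the form CANNTG, and many of these epithelial regulators are known to respond to transforming growth factor beta in other epithelia.

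The libraries had 10568146 to 13668736 reads in AmeloD and 14766931 to 17775226 reads in Control, as recovered from the deposited CPM, reads scaled to the library total, and 15.6% to 17.5% of them lay in the table. One read was worth 0.0563 to 0.0946 CPM. *Ascl5* had 0 reads in AmeloD and 0 in Control, so the overexpression label could not be checked on this 3′ count. *Odam* had 31 reads in the pCMV6.ODAM libraries, 4 of them in AmeloD and 27 in Control, against 1 read in the pCMV6 libraries. The summed level of 9 epithelial identity genes was 324 to 460 CPM in AmeloD and 261 to 338 CPM in Control, with *Krt18* at 0. Most of this sum was *Krt5*. Of 8 tested, *Krt5*, *Cdh1*, *Epcam*, *Cldn4* and *Dsp* rose in AmeloD, while the simple epithelial keratin gene *Krt8* fell to 3.75 ± 0.99 CPM in AmeloD, against 8.80 ± 1.14 CPM in Control (−1.06, limma adjusted p = 4.55e-05). The *Krt5* call ended without AmeloD pCMV6 TGF (limma adjusted p = 0.0504) or Control pCMV6 TGF (0.0672), or with genotype as the sole term (0.0534). Of 19 mesenchymal and fibroblast markers, 10 had a read in AmeloD and 10 in Control. Their sum, most of it *S100a4*, *Fn1* and *Col3a1*, was 174 to 234 CPM in AmeloD and 234 to 313 CPM in Control. Of the 5 tested, 0 rose and 3 fell in AmeloD, *Col3a1* (20.3 CPM in AmeloD against 45.8 CPM in Control, −1.11), *Col5a2* (−0.83) and *Fn1* (−0.59), the call of *Fn1* ending with genotype as the sole term (limma adjusted p = 0.243). The fibroblast genes *Col1a2*, *Pdgfrb*, *Thy1*, *Lum*, *Dcn* and *Postn* were at 0 in all 8 libraries. Leukocyte markers, of which 6 of 11 had a read in AmeloD and 5 in Control, summed to 2.96 to 4.17 CPM in AmeloD and 0.939 to 1.75 CPM in Control, with *Csf1r*, *Tyrobp* and *Laptm5* at 0. Most of this sum was the single gene *Cd68*, at 3.21 CPM in AmeloD and 1.20 CPM in Control. It was the only one of these markers tested (0.95, limma adjusted p = 0.000792). *Ptprc* had 1 read in all 8 libraries together, and *Fcer1g* had 3 reads in AmeloD and 8 in Control. The part of these markers in the values of the regulators was not tested. In bulk RNA, fewer cells of a type and less RNA per cell cannot be told apart.

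Promoters from 250 bases before to 50 bases after the annotated start were available for 5 of the 9 genes in the RefSeq annotation of the rat build GRCr8. CANNTG reads the same on both strands. It occurred in the promoters of *Grhl3* (3 matches), *Elf3* (3), *Tp63* (4) and *Klf5* (1) and had 0 matches in that of *Klf4*, and 72.1% of all 33469 RefSeq promoters of this length held at least 1 match. The form CAGCTG, itself a CANNTG, occurred in *Tp63* (1 match) and in 15.1% of all promoters. The Grainyhead-like word AACCGGTT was in 0 of the 5 and in 0.173% of all. The Krüppel-like word CACCC, read on both strands, was in 4 of the 5 and in 54.9% of all, and the SMAD word CAGAC in 2 of the 5 and in 50.1% of all. A match is a description and not a binding site. All 5 genes with a promoter here had higher mean levels in AmeloD than in Control, and none passed its genotype test. *Esrp1* and *Grhl2*, the regulators with lower means in AmeloD, had no promoter here, so this count depends on which promoters were available. The median log2 difference over all genes tested was also above 0, at 0.05. Below are the promoters of 3 of the 5 genes, shown because AmeloD is a factor of the E-box binding class. Those of *Klf4*, with 0 matches, and *Tp63*, with 4, are left out, so the choice says nothing of a link between matches and level. The promoters shown run 5′ to 3′ on the gene's strand with the CANNTG matches in capitals. *Klf5* lies on the plus strand at chr15:82471831-82472130, *Elf3* on the minus strand at chr13:49247037-49247336 and *Grhl3* on the minus strand at chr5:153089841-153090140.
Klf5: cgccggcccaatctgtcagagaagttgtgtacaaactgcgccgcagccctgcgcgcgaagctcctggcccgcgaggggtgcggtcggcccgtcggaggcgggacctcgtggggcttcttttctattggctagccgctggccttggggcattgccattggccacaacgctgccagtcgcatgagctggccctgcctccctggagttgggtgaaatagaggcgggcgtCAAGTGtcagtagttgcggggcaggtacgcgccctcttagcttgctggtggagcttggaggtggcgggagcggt
Elf3: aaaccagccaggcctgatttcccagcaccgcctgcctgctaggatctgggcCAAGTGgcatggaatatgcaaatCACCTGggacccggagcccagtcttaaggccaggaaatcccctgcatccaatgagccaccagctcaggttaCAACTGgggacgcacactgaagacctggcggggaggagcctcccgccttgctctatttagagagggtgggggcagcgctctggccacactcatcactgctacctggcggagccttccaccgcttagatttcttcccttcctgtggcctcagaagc
Grhl3: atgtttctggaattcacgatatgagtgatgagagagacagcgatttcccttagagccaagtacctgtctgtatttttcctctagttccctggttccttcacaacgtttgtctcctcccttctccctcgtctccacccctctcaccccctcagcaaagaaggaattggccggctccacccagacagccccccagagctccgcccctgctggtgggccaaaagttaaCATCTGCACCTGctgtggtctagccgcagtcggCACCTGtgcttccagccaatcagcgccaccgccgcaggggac
The *Klf5* window holds its only match shortly before the start, whereas *Grhl3* carries 2 adjacent matches in the capital run CATCTGCACCTG before the start and a further match after it.

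The comparison of AmeloD with Control asked which genes differ in cells labelled as overexpressing AmeloD. None of the regulators passed the test. *Esrp1* averaged 6.49 ± 1.40 CPM in AmeloD and 8.75 ± 0.77 CPM in Control, while *Esrp2*, its paralogue, averaged 2.90 ± 0.45 CPM in AmeloD and 1.76 ± 0.42 CPM in Control (SD, n = 4 libraries each). *Klf5* averaged 18.7 ± 2.09 CPM in AmeloD and 14.3 ± 2.35 CPM in Control, and *Elf3* averaged 2.65 ± 1.19 CPM in AmeloD and 1.56 ± 0.52 CPM in Control. These SDs span libraries with different plasmid and TGF labels. The test was limma on log2(CPM + 1) over all 8 libraries with genotype, plasmid and TGF as additive terms, and p-values were adjusted by Benjamini-Hochberg over 6849 genes, those that reached 1 CPM in 4 or more libraries. Adjusted p-values under 0.05 count as passing. Of the 9 genes, 7 met the level filter and 0 of these 7 passed, against 13.8% of all genes tested, 9.07% higher and 4.75% lower. At an unadjusted p under 0.05 stood 4 of the 7, against 1849 of the 6849 genes. The split of calls depends on the scaling: 621 genes rose and 325 fell as deposited, against 490 and 510 when all libraries were brought to the same median and 519 and 438 by edgeR on the recovered reads. With no replicate of any combination, the fit leaves 4 residual degrees of freedom per gene, which also hold the interactions. To these limma adds information on the variance from all genes tested. The p-values and 95% intervals of a gene therefore lean on the spread of other genes too. Nothing says that libraries came from separate cultures, so the p-values measure the spread between these libraries, which may be technical.

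**Figure D1:**
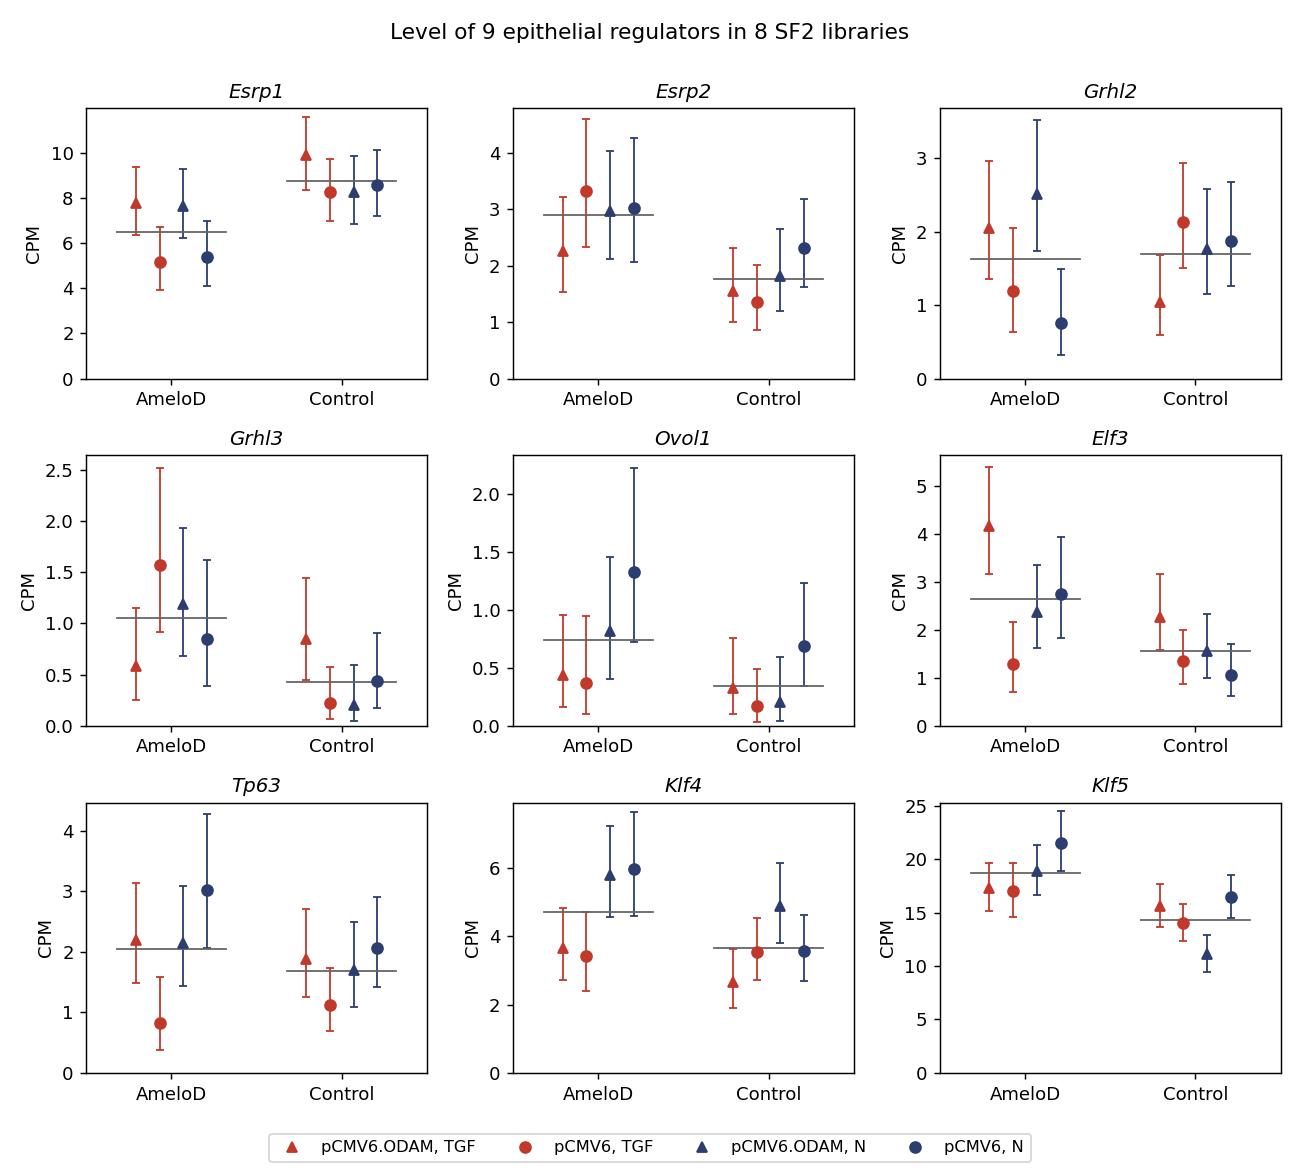
Level of each of the 9 regulators in every library, in CPM on linear axes that start at 0, with exact 95% Poisson intervals that cover counting error only; AmeloD stands left of Control, colour gives the TGF or N label, symbol the plasmid and the grey line the mean of 4 libraries. The 4 AmeloD libraries lie below all Control libraries for *Esrp1* and above them for *Klf5*, and the other 7 genes overlap.

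*Esrp1* (ENSRNOG00000008184, chromosome 5, 24428717 to 24482062 on the minus strand in mRatBN7.2, the build of the deposited coordinates) encodes the main splicing regulator of epithelia. In AmeloD it stood at 5.39 CPM with pCMV6 and N, 7.64 with pCMV6.ODAM and N, 7.75 with pCMV6.ODAM and TGF and 5.17 with pCMV6 and TGF. In Control the same combinations stood at 8.57, 8.26, 9.88 and 8.27 CPM. All AmeloD libraries were below all Control libraries, and the AmeloD pCMV6 libraries were the lowest. The fitted difference was −0.40 ± 0.15 (log2 of CPM + 1, SE; 95% interval −0.71 to −0.09; limma adjusted p = 0.0824), a ratio of mean CPM of 0.742. The call changed with the scaling. The difference passed at −0.46 with TMM scaling (adjusted p = 0.0307), at −0.47 with equal medians (adjusted p = 0.0277) and at −0.51 by edgeR on the recovered reads (adjusted p = 0.0337), and did not pass with DESeq2 (−0.51, adjusted p = 0.0687) or when any library was left out (−0.49 to −0.33).

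*Esrp2* (ENSRNOG00000023177, chromosome 19, 34034559 to 34041726, minus strand), which acts on largely the same exons, stood at 3.03 CPM with pCMV6 and N, 2.97 with pCMV6.ODAM and N, 2.27 with pCMV6.ODAM and TGF and 3.33 with pCMV6 and TGF in AmeloD. In Control the same combinations stood at 2.32, 1.83, 1.56 and 1.35 CPM. AmeloD was higher in all 4 pairs of libraries that differ in genotype alone, and the lowest AmeloD library was just under the highest Control library. Among all genes tested, 20.6% were higher in all 4 pairs. The difference was 0.50 ± 0.18 (log2 of CPM + 1; 95% interval 0.13 to 0.87; limma adjusted p = 0.0651), and it did not pass under any alternative run.

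Since both genes were counted in the same library, their ratio does not depend on how libraries were scaled. Per 100 *Esrp1* reads there were 56.1 *Esrp2* reads in AmeloD with pCMV6 and N, 38.8 with pCMV6.ODAM and N, 29.2 with pCMV6.ODAM and TGF and 64.3 with pCMV6 and TGF. In Control the same combinations gave 27.0, 22.1, 15.8 and 16.3. Every AmeloD library was above every Control library, and the narrowest gap was between 29.2 and 27.0. The reads behind the ratio were 31 to 40 for *Esrp2* and 56 to 106 for *Esrp1* in AmeloD, against 24 to 37 and 122 to 152 in Control. The narrowest gap rests on 31 *Esrp2* and 106 *Esrp1* reads in AmeloD, against 37 and 137 in Control. This ratio was chosen after the values were seen and carries no test. *Esrp1* alone already separated the genotypes and *Esrp2* was higher in all 4 pairs, so the ratio is not separate evidence. How many other pairs of genes have ratios that separate the genotypes was not computed. The sum of both genes was 8.42 to 10.6 CPM in AmeloD and 9.62 to 11.4 CPM in Control, which overlap. The ratio compares libraries and says nothing of which of the genes has more RNA, since 3′ counts of different genes are not on a common scale.

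**Figure D2:**
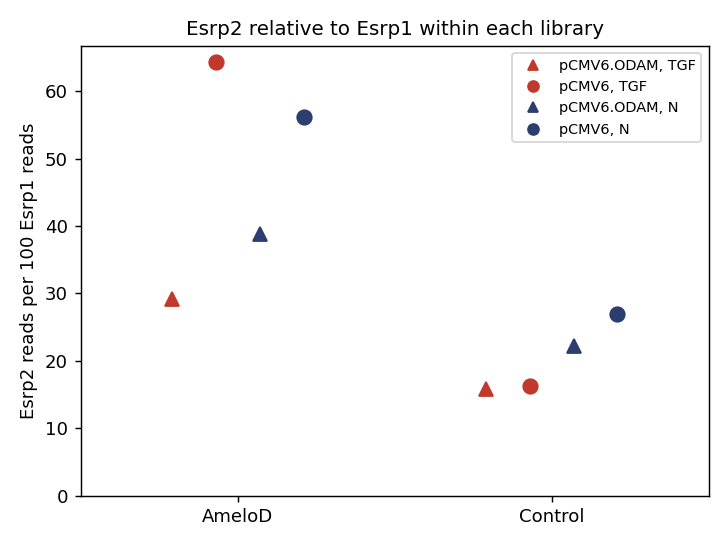
*Esrp2* reads per 100 *Esrp1* reads in each library, on a linear axis that starts at 0, AmeloD left of Control and each combination of plasmid and TGF label marked. AmeloD libraries lie between 29.2 and 64.3 and Control libraries between 15.8 and 27.0. The ratio was chosen after the values were seen, and no intervals for counting error are drawn.

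Of the Grainyhead-like factors, *Grhl2* (ENSRNOG00000007000, chromosome 7, 68400477 to 68530258, plus strand), a regulator of E-cadherin and claudin genes in mouse epithelia, did not separate the genotypes. It stood at 0.757, 2.52, 2.05 and 1.20 CPM in AmeloD and at 1.88, 1.76, 1.04 and 2.14 CPM in Control (pCMV6 with N, pCMV6.ODAM with N, pCMV6.ODAM with TGF and pCMV6 with TGF, in that order). AmeloD was higher in 2 of 4 pairs, and the fitted difference was −0.07 ± 0.22 (log2 of CPM + 1; 95% interval −0.52 to 0.37; limma adjusted p = 0.881).

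*Grhl3* (ENSRNOG00000029427, chromosome 5, 147774160 to 147806160, minus strand), which drives barrier formation in mouse epidermis, had few reads. There were 9, 16, 8 and 17 in AmeloD and 7, 3, 13 and 4 in Control, in the same order of combinations. These are 0.852, 1.19, 0.585 and 1.57 CPM in AmeloD and 0.438, 0.203, 0.845 and 0.225 CPM in Control. AmeloD was higher in 3 of 4 pairs, and the pair with pCMV6.ODAM and TGF went the other way. *Grhl3* missed the level filter, with 2 libraries at 1 CPM or more, so its means of 1.05 ± 0.43 CPM in AmeloD and 0.428 ± 0.298 CPM in Control (SD, n = 4 each) were compared by a two-sided exact permutation test over 70 splits (p = 0.0571, smallest reachable 0.0286). EdgeR on all genes with a read gave a log2 fold change of 1.22 (adjusted p = 0.0921).

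*Ovol1* (ENSRNOG00000020669, chromosome 1, 202855265 to 202866831, minus strand), a repressor of mesenchymal genes in epithelia, had 14, 11, 6 and 4 reads in AmeloD and 11, 3, 5 and 3 reads in Control. These are 1.32, 0.816, 0.439 and 0.370 CPM in AmeloD and 0.688, 0.203, 0.325 and 0.169 CPM in Control. AmeloD was higher in 4 of 4 pairs while the groups overlapped. The means of 0.737 ± 0.438 CPM in AmeloD and 0.346 ± 0.238 CPM in Control differed with an exact permutation p of 0.171 (two-sided, n = 4 each). The Control libraries with 3 reads are at the floor taken here.

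*Elf3* (ENSRNOG00000006330, chromosome 13, 46690466 to 46695481, minus strand), an ETS factor of differentiating epithelia, ranged widely among AmeloD libraries. It stood at 2.74, 2.37, 4.17 and 1.29 CPM in AmeloD and at 1.06, 1.56, 2.27 and 1.35 CPM in Control. The AmeloD pCMV6 TGF library was level with its Control counterpart, and the other 3 pairs were higher in AmeloD. The difference was 0.47 ± 0.20 (log2 of CPM + 1; 95% interval 0.05 to 0.89; limma adjusted p = 0.128). Without the AmeloD pCMV6 TGF library it was 0.69 and passed (adjusted p = 0.0270), and without the AmeloD pCMV6 N library it was 0.28 (adjusted p = 0.483).

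*Tp63* (ENSRNOG00000001924, chromosome 11, 74838859 to 75049398, minus strand) encodes p63, which maintains basal epithelial cells. It stood at 3.03, 2.15, 2.19 and 0.832 CPM in AmeloD and at 2.07, 1.69, 1.88 and 1.13 CPM in Control. AmeloD held both the highest and the lowest library. The difference was 0.14 ± 0.20 (log2 of CPM + 1; 95% interval −0.28 to 0.56; limma adjusted p = 0.725). Counts near the 3′ end cannot tell the p63 isoforms with and without the transactivation domain apart, since these differ at the 5′ end.

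The Krüppel-like factors are KLF5, which sustains proliferating basal cells, and KLF4, which is required for barrier formation in mouse epidermis. *Klf5* (ENSRNOG00000008785, chromosome 15, 76064258 to 76079445, plus strand) stood at 21.6, 18.9, 17.3 and 17.0 CPM in AmeloD and at 16.5, 11.1, 15.6 and 14.0 CPM in Control. All AmeloD libraries were above all Control libraries, by a margin of 17.0 against 16.5 CPM at the closest. The difference was 0.37 ± 0.14 (log2 of CPM + 1; 95% interval 0.09 to 0.66; limma adjusted p = 0.0739), a ratio of mean CPM of 1.31. It passed with each matched pair as a block (adjusted p = 0.0485) and, at 0.49, without the Control pCMV6.ODAM TGF library (adjusted p = 0.0257). Without the Control pCMV6.ODAM N library, the lowest of all 8, it was 0.23 (adjusted p = 0.382).

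*Klf4* (ENSRNOG00000016299, chromosome 5, 70278972 to 70283602, minus strand) stood at 5.96, 5.78, 3.66 and 3.42 CPM in AmeloD and at 3.57, 4.88, 2.66 and 3.54 CPM in Control. The AmeloD N libraries were the highest of the 8. The genotype difference was 0.28 ± 0.17 (log2 of CPM + 1; 95% interval −0.07 to 0.63; limma adjusted p = 0.311), higher in 3 of 4 pairs. Of the 7 genes tested, *Esrp1* and *Klf5* had genotypes that did not overlap, against 15% of all genes in either direction. For each of the 9 genes the exact 95% Poisson intervals of any libraries next to each other in order of level overlapped, while those of the highest and the lowest library did not.

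**Figure D3:**
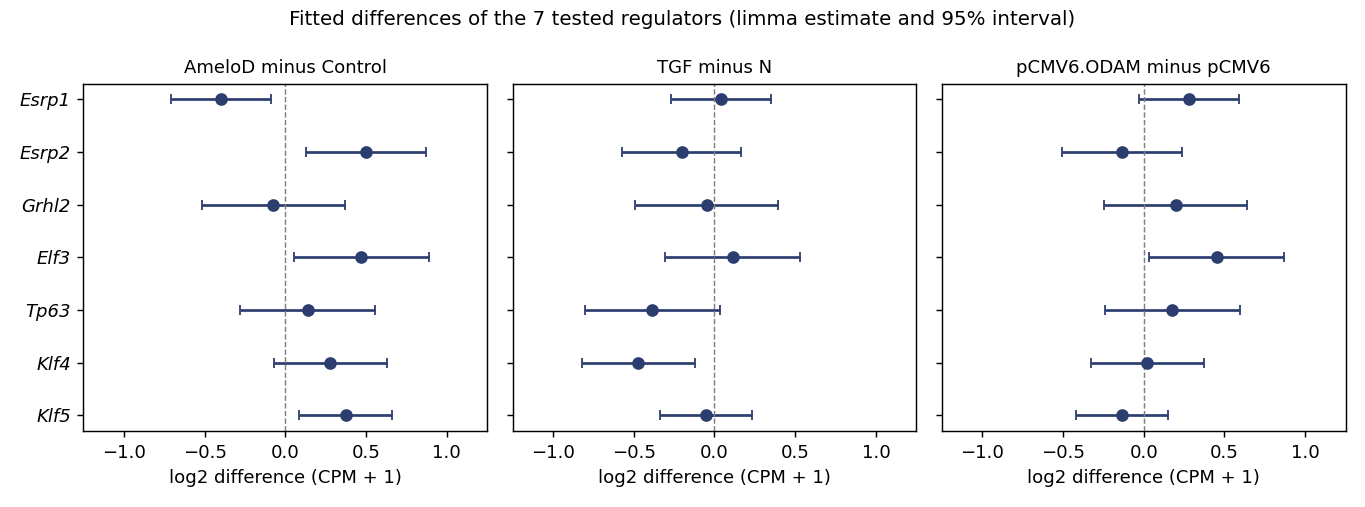
Fitted differences of the 7 tested regulators on the log2(CPM + 1) scale for AmeloD minus Control, TGF minus N and pCMV6.ODAM minus pCMV6, as points with 95% limma intervals and a line at 0. For genotype the interval lies below 0 for *Esrp1* (−0.40) and above 0 for *Esrp2* (0.50), *Elf3* (0.47) and *Klf5* (0.37), although none passed after adjustment over 6849 genes.

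Other genes of the same programme were read from lists, with the counts and the median difference set beside the median of 0.05 over all genes tested. By the same test 9.07% of all genes tested rose in AmeloD and 4.75% fell. The lists were chosen with earlier results of these data known, so their counts are description and not independent evidence. Of 28 other epithelial transcription factors, 14 were tested, 3 rose in AmeloD and 0 fell, with a median of 0.30. *Hopx*, a homeodomain cofactor of differentiating keratinocytes, averaged 30.5 ± 5.28 CPM in AmeloD and 15.9 ± 3.79 CPM in Control, a difference of 0.91 ± 0.12 (limma adjusted p = 7.99e-06). *Cebpb*, a basic leucine zipper factor, also rose (0.58, limma adjusted p = 0.0404), and its call ended without any 1 library other than AmeloD pCMV6 TGF (adjusted p = 0.0555 to 0.204), with TMM scaling (0.0501), equal medians (0.0611), genotype as the sole term (0.0597), no level filter (0.0959) or DESeq2 (0.0905). Of 10 transcription factors of the epithelial-mesenchymal transition, 3 were tested and 1 fell. It was *Zeb2*, a repressor of E-cadherin named after its values were seen, with 23 reads in AmeloD and 101 in Control (−0.77, adjusted p = 0.00704, and 0.0510 with no level filter). *Snai2* (0.18) and *Tcf12* (−0.28) did not pass.

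Genes of epithelial adhesion and polarity that Grainyhead-like factors control in the mouse were read next. Of the 16 genes read, 11 were tested, 8 rose and 0 fell, with a median of 0.65. E-cadherin (*Cdh1*) averaged 7.43 ± 2.38 CPM in AmeloD and 3.97 ± 0.96 CPM in Control, a difference of 0.74 ± 0.19 (limma adjusted p = 0.00791). The tight junction gene *Cldn4* (0.72), the adhesion molecule gene *Epcam* (0.65) and the protease inhibitor gene *Spint2* (0.54) also rose. Without the AmeloD pCMV6 N library 5 rose, and without the Control pCMV6 TGF library 4 rose, the *Cdh1* call ending in both cases (adjusted p = 0.0704 and 0.0520) and without Control pCMV6 N (adjusted p = 0.0550).

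Of 15 tested basal keratinocyte genes controlled by p63, 5 rose in AmeloD and 1 fell, with a median of 0.21. The desmosome genes *Pkp1* (0.71) and *Dsp* (0.58) and the integrin gene *Itga3* (0.67) rose, and the hemidesmosome collagen gene *Col17a1* fell (−0.43). The *Dsp* call ended without AmeloD pCMV6 N (adjusted p = 0.101), Control pCMV6 N (0.0529), Control pCMV6.ODAM N (0.0695) or Control pCMV6 TGF (0.0921), and 3 genes of the list rose without the last of these. It also ended with DESeq2 (0.227), genotype as the sole term (0.0652) or no level filter (0.0582). The *Col17a1* call ended without AmeloD pCMV6.ODAM N (adjusted p = 0.0576), AmeloD pCMV6 TGF (0.0610) or Control pCMV6 N (0.0680), or with genotype as the sole term (0.0816). Of 17 tested barrier and terminal differentiation genes 13 rose and 1 fell, with a median of 1.38. The cornified envelope genes *Cnfn* (2.50) and *Sprr1a* (2.27), the keratinocyte differentiation gene *Krtdap* (2.48) and the suprabasal keratin gene *Krt13* (2.09) rose most among those of at least 5 CPM.

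**Figure D4:**
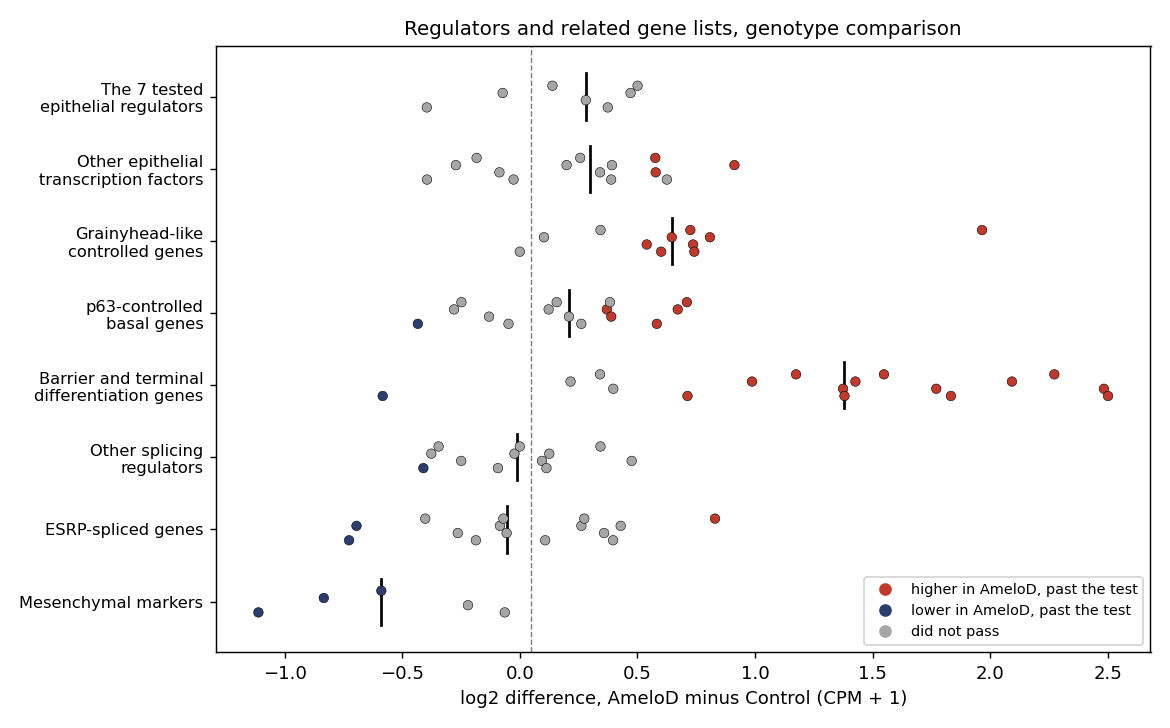
Difference AmeloD minus Control on the log2(CPM + 1) scale for each tested gene of the lists, 1 point per gene, coloured by whether it passed the limma test in either direction, with a bar at the median of each list and a dashed line at the median of all genes tested (0.05). The 7 tested regulators have a median of 0.28 and 0 genes past the test, against a median of 1.38 with 13 rises for barrier genes and 0.65 with 8 rises for genes controlled by Grainyhead-like factors. The lists were chosen with earlier results of these data known. Adding 1 to the CPM draws differences of low genes toward 0, and the regulators average fewer CPM than the barrier genes named in the text. With the level filter raised to 5 CPM, 22.4% of genes passed, against 13.8%.

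Beside the ESRP genes, 12 other RNA-binding regulators of epithelial and mesenchymal splicing were tested, of which 0 rose and 1 fell, with a median of −0.01. *Mbnl1*, a muscleblind splicing factor, averaged 27.1 ± 2.12 CPM in AmeloD and 36.5 ± 4.89 CPM in Control, a difference of −0.41 ± 0.12 (limma adjusted p = 0.0259). Its call ended without AmeloD pCMV6 N (adjusted p = 0.0709), AmeloD pCMV6.ODAM N (0.130), Control pCMV6 N (0.151), Control pCMV6.ODAM N (0.0659) or Control pCMV6.ODAM TGF (0.0743), or with no level filter (0.0626). *Hnrnpf*, the highest in CPM of the others, did not pass (0.13). Of 15 tested genes whose transcripts ESRP proteins splice in mouse or human, 1 rose and 2 fell, with a median of −0.06. The polarity gene *Scrib* averaged 8.80 ± 1.94 CPM in AmeloD and 4.46 ± 0.50 CPM in Control, a difference of 0.83 ± 0.16 (limma adjusted p = 0.000753). *Numb* (−0.73) and *Csnk1g3* (−0.69), named after their values were seen, fell. The *Numb* call ended without AmeloD pCMV6.ODAM N, AmeloD pCMV6 TGF, Control pCMV6 N or Control pCMV6.ODAM TGF (adjusted p = 0.0591 to 0.123), or with no level filter (0.0590). The *Csnk1g3* call ended without AmeloD pCMV6.ODAM TGF, AmeloD pCMV6 TGF, Control pCMV6.ODAM TGF or Control pCMV6 TGF (adjusted p = 0.0599 to 0.104), or with no level filter (0.0519). *Enah* stood at 0.36 (adjusted p = 0.0879). These counts are of whole genes near the 3′ end, so exon use was not measured.

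The comparison of TGF with N asked which genes differ under the TGF label on average over the 2 genotypes, and not in each of them. None of the 7 tested regulators passed, against 1.81% of all genes, 1.53% higher and 0.277% lower. *Klf4* had the lowest p among them. It stood at 3.66 CPM with pCMV6.ODAM and 3.42 with pCMV6 in AmeloD TGF libraries, against 5.78 and 5.96 in AmeloD N libraries. In Control it stood at 2.66 with pCMV6.ODAM and 3.54 with pCMV6 under TGF, against 4.88 and 3.57 under N. TGF was lower in all 4 pairs, the Control pCMV6 pair being nearly level, and 6.47% of all genes were lower in all 4. The means were 3.32 ± 0.45 CPM with TGF and 5.05 ± 1.10 CPM with N (SD, n = 4 each), and the groups overlapped by the Control pCMV6 N library. The difference was −0.47 ± 0.17 (log2 of CPM + 1; 95% interval −0.82 to −0.12; limma unadjusted p = 0.0108, adjusted p = 0.205).

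*Tp63* was lower under TGF in both pCMV6 pairs. With pCMV6 it stood at 0.832 CPM under TGF and 3.03 under N in AmeloD, and at 1.13 under TGF and 2.07 under N in Control. With pCMV6.ODAM it stood at 2.19 under TGF and 2.15 under N in AmeloD, and at 1.88 under TGF and 1.69 under N in Control. The fitted TGF difference was −0.39 ± 0.20 (log2 of CPM + 1; 95% interval −0.80 to 0.03; limma adjusted p = 0.465), and the dependence on the plasmid was not tested. *Ovol1* averaged 0.326 ± 0.115 CPM with TGF and 0.758 ± 0.461 CPM with N (two-sided exact permutation p = 0.114, n = 4 each), from 18 reads with TGF and 39 with N. Without the Control pCMV6.ODAM N library, the lowest of the N libraries, that p was 0.0286, the smallest reachable, with no adjustment for the libraries left out in turn. *Grhl3* averaged 0.806 CPM with TGF and 0.670 CPM with N (exact permutation p = 0.686, n = 4 each).

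The splicing regulators and the other factors did not pass for TGF, and each interval included 0. The differences were 0.04 for *Esrp1* (95% interval −0.27 to 0.35), −0.20 for *Esrp2* (−0.58 to 0.17), −0.05 for *Grhl2* (−0.49 to 0.40), 0.11 for *Elf3* (−0.30 to 0.53) and −0.05 for *Klf5* (95% interval −0.34 to 0.23). *Esrp1* turned to −0.013 with TMM scaling, so it has no direction of its own here. Among the lists, the p63-controlled basal genes had 3 of 15 that rose with TGF and 0 that fell. Among these were *Fermt1*, an integrin activator (1.20), and the laminin chain gene *Lamb3* (0.83). Of the barrier genes, *Krtdap* fell (−0.58, adjusted p = 0.00360, and 0.961 with TGF as the sole term) and 0 rose. A fit with TGF as the sole term leaves genotype differences, 2.48 for *Krtdap*, in the residual. It was the only alternative in which the *Krtdap* call ended. Among other epithelial transcription factors, transition factors, Grainyhead-controlled genes, splicing regulators and ESRP-spliced genes, 0 passed in either direction. The mesenchymal marker sum was 210 to 313 CPM with TGF and 174 to 243 CPM with N, with 3 rises. These were *Fn1* (1.12), *Col5a2* (0.59) and *Col3a1* (0.49), and with TGF as the sole term the calls of all 3 ended (limma adjusted p = 0.0954, 0.766 and 0.894). The *Col5a2* call also ended without any 1 library other than Control pCMV6 TGF (adjusted p = 0.0746 to 0.172), with reads of the table as library total (0.0665), no level filter (0.100) or DESeq2 (0.0678). The *Col3a1* call also ended without any 1 library other than AmeloD pCMV6.ODAM TGF or Control pCMV6 TGF (adjusted p = 0.0794 to 0.212), with TMM scaling (0.0654), equal medians (0.0626), reads of the table as library total (0.0826), no level filter (0.134) or edgeR (0.0629). The part of this rise in the values of the regulators was not tested.

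**Figure D5:**
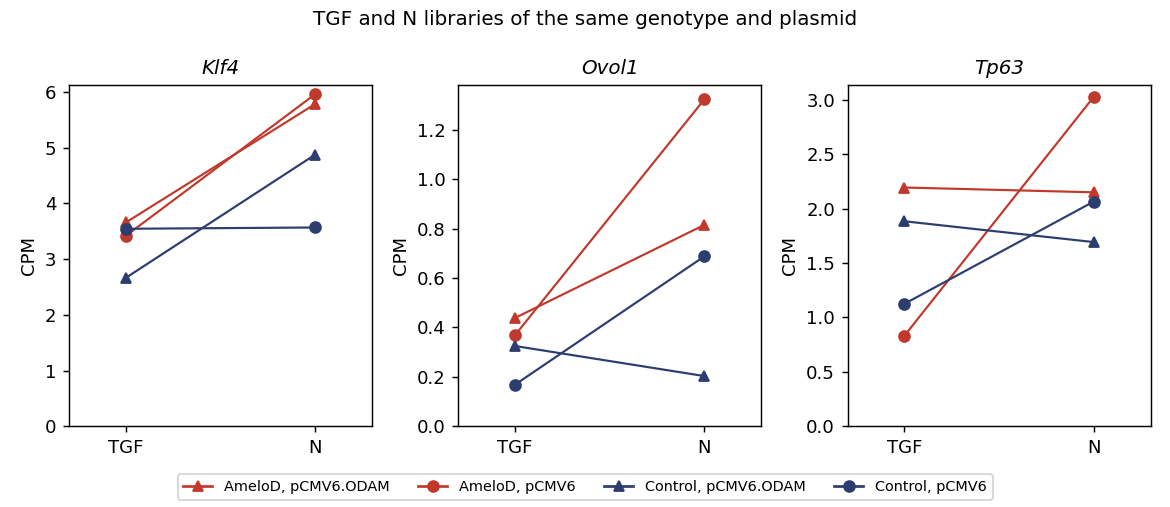
Levels in CPM of *Klf4*, *Ovol1* and *Tp63* in the TGF and N libraries, TGF left of N, on linear axes that start at 0 with a line joining the libraries that share genotype and plasmid. For *Klf4* the 4 lines run lower at TGF, the Control pCMV6 line by 3.54 against 3.57 CPM, and for *Tp63* the pCMV6 lines run lower at TGF and the pCMV6.ODAM lines slightly higher.

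The comparison of pCMV6.ODAM with pCMV6 gave 0 calls among the 7 regulators and 0% of all genes by limma, with 454 genes at an unadjusted p under 0.05, 0 calls by edgeR and 1 by DESeq2. Without the level filter, edgeR on the 17287 genes with a read called 12 higher and 4 lower with pCMV6.ODAM, and 0 of the 9 regulators. The largest difference of the 7 was for *Elf3*, which averaged 2.59 ± 1.11 CPM with pCMV6.ODAM and 1.61 ± 0.76 CPM with pCMV6 (0.45 ± 0.20 on the log2(CPM + 1) scale, limma adjusted p = 0.710). *Esrp1* averaged 8.38 ± 1.03 CPM with pCMV6.ODAM and 6.85 ± 1.82 CPM with pCMV6 (0.28 ± 0.15, adjusted p = 0.774), and its pCMV6.ODAM library was higher in 3 of 4 pairs.

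Interaction terms asked whether the genotype difference depends on the TGF or the plasmid label. For TGF 0 of the 7 regulators passed, against 0.0146% of all genes. The *Klf5* genotype difference was 0.54 ± 0.20 in N libraries (adjusted p = 0.105) and 0.20 ± 0.20 in TGF libraries (adjusted p = 0.685), and the interaction itself was −0.34 ± 0.28 (95% interval −0.92 to 0.23). The *Klf4* difference TGF minus N was −0.60 ± 0.25 in AmeloD and −0.34 ± 0.25 in Control, with an interaction of −0.25 ± 0.36 (95% interval −0.98 to 0.47). For the plasmid 0 of 7 passed, against 0% of all genes, with 308 genes at an unadjusted p under 0.05. *Grhl2* had the lowest p of the 7. With pCMV6.ODAM it stood at 2.52 CPM under N and 2.05 under TGF in AmeloD, against 0.757 and 1.20 with pCMV6. In Control it stood at 1.76 under N and 1.04 under TGF with pCMV6.ODAM, against 1.88 and 2.14 with pCMV6. The interaction was 1.08 ± 0.38 (log2 of CPM + 1; 95% interval 0.29 to 1.86; limma unadjusted p = 0.00928, adjusted p = 0.999), from 193 reads in all 8 libraries.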

How the data were processed

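RNA of 8 SF2 libraries was made into 3′ libraries, and reads were aligned to mRatBN7.2, per the labels' protocols. The submitters' processing notes name STAR 2.7.10a as well as featureCounts 2.0.1, beside trimming by cutadapt 3.7, Trimmomatic 0.39 and Trim Galore 0.6.7. The strand setting and any use of molecular identifiers were not stated. The authors deposited CPM per gene and library in a table of 30240 rows, of which 4319 had no symbol. Within a tolerance of 0.01, 100% of the values were whole multiples of 1 read, and the deposited CPM were scaled to totals of which 15.6% to 17.5% lay in the table. A library of 10568146 to 17775226 reads puts 3 reads, the floor taken for a count of 0, at 0.169 to 0.284 CPM. Intervals and floors cover counting error only.

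The main test was limma 3.58.1 (eBayes with trend) in R 4.3.3 on log2(CPM + 1), two-sided, with genotype, plasmid and TGF as additive terms; interaction fits had 3 residual degrees of freedom and the additive fit 4. Alternatives were edgeR 4.0.16 (957 genotype calls, against 946 by limma) and DESeq2 1.42.0 on recovered reads, other scalings, filters and pseudocounts, and each library left out; steps were tested on simulated data. *Grhl3* and *Ovol1*, under 1 CPM in more than 4 libraries, were compared by exact permutation; list genes below the filter were not tested.

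The genes and lists were chosen with earlier results of these data known. Named were all 9 regulators and, per list, up to 4 genes past the test with the largest differences among those of at least 5 CPM on average, or, where fewer than 2 passed, up to 2 of the highest mean CPM. *Krt14* and *Marveld2* were not analysed here, some genes of the lists are counted but not reported by name, and *Lor* and *Qk* are other symbols of *Loricrin* and *Qki*. Promoter sequences are from RefSeq GRCr8, and 5 of 9 genes matched.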

Additional observations from a re-analysis of the deposited data

Results flagged for a closer look

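In the pCMV6 libraries, the AmeloD N library stood apart for 2 of the regulators. For *Elf3* it had 2.74 CPM, with the nearest of the other libraries at 1.35 CPM, a gap of 0.830 of the whole range of the 4 libraries. For *Klf4* it had 5.96 CPM, with the nearest at 3.57 CPM, a gap of 0.941 of the range. Both exceed Dixon's 95% critical value for 4 samples, and 54 groups of 4 libraries were examined. Among samples of 1 distribution, chance alone gives such gaps in about 1 group of 20. The 4 libraries here differ in genotype and TGF label, so that rate does not hold for them and the gaps are flags only. The AmeloD pCMV6.ODAM N library, which shares genotype and TGF label with the flagged one, stood at 2.37 CPM for *Elf3* and 5.78 CPM for *Klf4*.

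The plasmid difference of *Grhl2* ran in opposite directions by genotype. The mean difference of pCMV6.ODAM minus pCMV6 on the log2(CPM + 1) scale was 0.74 in AmeloD and −0.34 in Control, and the interaction of 1.08 had an unadjusted p of 0.00928 and a limma adjusted p of 0.999. Of 18 such differences examined, it was the only 1 in which both AmeloD pairs ran opposite to both Control pairs. With so few pairs in each genotype, chance alone gives this pattern often enough that 1 among 18 is no surprise.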

How the results depend on the processing

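The labels give no replicate numbers, so the paired analysis took as a block the 4 pairs of libraries that share plasmid and TGF label. The genotype count, 0 of 7 regulators as deposited, was 1 with TMM scaling (*Esrp1*, against 14.7% of all genes), 1 with equal medians (*Esrp1*, 14.6%), 1 by edgeR (*Esrp1*, 14%) and 1 with the block of matched pairs (*Klf5*, 15.1%). With a library left out it was 0 to 1, the call being *Elf3* without AmeloD pCMV6 TGF (12.2%) and *Klf5* without Control pCMV6.ODAM TGF (13.5%). It was 0 with DESeq2 (11.3%), a pseudocount of 0.25, other filters, the reads of the table as library total, and genotype alone. TGF, plasmid and interaction counts were 0 under every alternative run. For the 2 genes below the filter, the tests counted were those with an unadjusted exact permutation p under 0.05. Their count was 0 as deposited and 0 to 1 with a library left out, from *Ovol1* for TGF without Control pCMV6.ODAM N.

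The signs of *Esrp1*, *Esrp2*, *Elf3*, *Klf4* and *Klf5* for genotype held in all alternatives run. The *Esrp1* TGF difference, 0.04 as deposited, was −0.013 with TMM, −0.0080 with equal medians, −0.026 scaled to the reads of the table, −0.013 by edgeR, −0.013 by DESeq2 and −0.057 to 0.11 with a library left out. With a library left out, the genotype difference ran from −0.30 to 0.15 for *Grhl2* and from −0.037 to 0.34 for *Tp63*, and the TGF difference from −0.28 to 0.18 for *Grhl2*, −0.027 to 0.33 for *Elf3* and −0.19 to 0.031 for *Klf5*. The causes were not tested. Depth limits *Grhl3* (77 reads in all) and *Ovol1* (57 reads) most.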

Other observations

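The genes whose profile over the 8 libraries was most like that of a regulator were sought among 2418 genes averaging 5 CPM or more, by the root mean square difference of centred log2(CPM + 1) values. Since no regulator passed a test, these are given for the genes that did not overlap or nearly so and were chosen after the values were seen. Nearest to *Esrp1* were *Morf4l1* (0.0484), a chromatin reader gene, and *Morf4l1-ps4* (0.0489), named as its pseudogene, which may share reads with it. Nearest to *Esrp2* were the basal keratin gene *Krt5* (0.0852) and the Polycomb gene *Suz12* (0.0988), and nearest to *Klf5* were the phosphatase gene *Ptp4a2* (0.0901) and *Pabpc4* (0.0915), which encodes a poly(A)-binding protein. *Esrp1* itself had an SD of 0.29 over the libraries on this scale, *Esrp2* 0.32 and *Klf5* 0.27.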
